A study of Rattus norvegicus with 15 samples.

Results

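The genes described here are 10 circadian clock genes of rat gastrocnemius, a mixed calf muscle: Nr1d1, Nr1d2, Bhlhe40, Bhlhe41, Per1, Per2, Per3, Dbp, Nfil3 and Tef. They were taken by name, and every probe set of the Affymetrix Rat Genome array whose only gene symbol is one of them was used, which gave 16 of 31042 probe sets and 10 of the 14217 genes that the array names with 1 symbol. The study asked how a low-protein diet after weaning changes skeletal muscle, and whether the change lasts after the diet ends. Male Wistar rats bought at 3.5 weeks of age received a 15% casein diet for 3 days and were then given either that control diet (CN, 4 rats on arrays) or a calorie-matched diet with 8% casein (LP, 4 rats) for 4 weeks. Rats of both diets that were kept on to day 84 form the groups CN-R (3 rats here, replicates 1, 2 and 4) and LP-R (4 rats). The methods put both of these groups on the control diet after the first 4 weeks, whereas the sample labels say that each stayed on its earlier diet, so the diet of LP-R between week 4 and day 84 is not settled here. All 4 groups were fasted for 16 h before sampling and lived under 12 h of light from 8:00 to 20:00. The hour at which each rat was sampled is not given in the sources used here. One array was run per rat, on rats picked because their body weight lay near the mean of their group. The title of CN-R replicate 4 calls it a control and its treatment field calls it restricted; it was kept in CN-R after its title.

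Nearly every cell holds a clock made of 2 arms that switch each other on and off through the day. The activators BMAL1 and CLOCK bind E-box sequences and switch on the Per and Cry genes, Nr1d1 and Nr1d2, Bhlhe40 and Bhlhe41, and Dbp and Tef. The products of Per and Cry hold BMAL1 and CLOCK back, the REV-ERB receptors made from Nr1d1 and Nr1d2 silence Bmal1 and Nfil3 through ROR elements, BHLHE40 and BHLHE41 compete for E-boxes, and DBP and TEF switch on D-box genes that NFIL3 represses. In skeletal muscle this clock times the use of glucose, fat and amino acids, and both feeding and glucocorticoids can shift it.

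Promoter sequences from RefSeq (build GRCr8) were searched for these elements in windows from 250 bases before to 50 bases after each transcription start, on both strands. All 10 genes had a window, and Nr1d1 had a pair of them. The E-box CACGTG was found in the windows of 4 of the 10 genes, Nr1d1, Bhlhe40, Bhlhe41 and Tef, and in 6.42% of 33469 windows of all genes. The D-box TTATGTAA or TTACGTAA was found in 1 of the 10, Per2, and in 1.01% of all windows. The ROR element ANTAGGTCA or ANTGGGTCA was found in none of the 10 (1.46% of all windows), and neither was the cAMP response element TGACGTCA (1.83%). Among the other clock genes, the window of Bmal1 holds a ROR element 18 bases before the start. The sequences that follow are the 250 bases before the start, 5′ to 3′ on the strand of the gene, for the member with the largest spread between rats in the early set (Nr1d1), for the member whose CN and LP values did not overlap (Bhlhe41), for the D-box member (Per2), and for Bmal1, which ran opposite to Dbp over rats. Capitals mark the element; a match is a description of the letters and not a bound site. They lie at chr10:84229455-84229704, chr4:180569356-180569605, chr9:99496994-99497243 and chr1:176766078-176766327, in that order, on minus strand except for Bmal1, which is on the plus strand.
Nr1d1: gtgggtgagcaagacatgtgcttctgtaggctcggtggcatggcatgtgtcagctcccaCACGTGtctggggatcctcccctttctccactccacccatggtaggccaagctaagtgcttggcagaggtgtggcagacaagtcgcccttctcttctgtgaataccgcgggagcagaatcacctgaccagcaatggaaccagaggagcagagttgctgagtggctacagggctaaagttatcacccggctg
Bhlhe41: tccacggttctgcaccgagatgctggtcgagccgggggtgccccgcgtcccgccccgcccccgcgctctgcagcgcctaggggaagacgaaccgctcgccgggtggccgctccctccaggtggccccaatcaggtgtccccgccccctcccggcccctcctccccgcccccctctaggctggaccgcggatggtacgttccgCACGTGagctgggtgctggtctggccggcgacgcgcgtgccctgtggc
Per2: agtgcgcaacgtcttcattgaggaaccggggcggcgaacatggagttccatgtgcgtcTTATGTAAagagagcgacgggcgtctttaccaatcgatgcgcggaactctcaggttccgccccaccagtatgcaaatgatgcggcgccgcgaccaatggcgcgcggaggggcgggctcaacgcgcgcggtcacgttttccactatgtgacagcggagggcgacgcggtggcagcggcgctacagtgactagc
Bmal1: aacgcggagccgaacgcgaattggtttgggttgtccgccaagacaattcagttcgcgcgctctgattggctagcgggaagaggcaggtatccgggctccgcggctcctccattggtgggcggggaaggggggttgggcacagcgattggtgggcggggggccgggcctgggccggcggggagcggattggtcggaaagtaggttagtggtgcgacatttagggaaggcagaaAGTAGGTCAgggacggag

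The arrays form an early set (CN and LP) and a late set (CN-R and LP-R). The deposited values are log2 signals that the authors summarized with FARMS, a method that sets a probe set nearly flat when its probes do not vary together. Of the 31042 probe sets, 26041 were nearly constant within both sets, and 94.7% of these sat at a different constant in the late set than in the early set, so no level was compared between early and late arrays. A probe set was called varying in a set where its SD over the arrays exceeded 0.01. By this rule 3974 probe sets varied early and 3100 late, among them 10 and 12 of the 16 probe sets of the clock genes. The 10 early ones cover 9 genes, all but Per3, and the 12 late ones cover all 10. The flat ones were 1378560_at of Per2, 1388239_at of Per3 and 1385374_at of Tef in both sets, 1378745_at of Per3, 1370540_at of Nr1d2 and 1369919_at of Tef early, and 1390819_at of Tef late. A flat value says nothing of whether the transcript changed. Where a gene had several varying probe sets, the brightest is given unless another is named.

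Group differences were called by rank products, the test named in the methods, which ranks the change of every probe set in each pair of rats and gives the proportion of calls expected to be false (pfp). Among CN and LP, 1.65% of all probe sets were called higher and 1.62% lower in LP at a pfp up to 0.05. Of the 10 clock genes, 2 were called higher (Bhlhe41 and Nr1d1) and 1 lower (Nfil3). Among CN-R and LP-R, 0.345% of all probe sets were called higher and 0.168% lower in LP-R. Here 4 of the 10 were called higher (Bhlhe41, Dbp, Nr1d1 and Per3) and none lower. The shares count all probe sets, most of them flat, whereas 9 of the clock genes varied early and all 10 late. Shares and counts are therefore not like for like. The split between higher and lower turned on how the null was drawn. With each probe set's mean taken out before the values were permuted, 1.84% and 1.71% of probe sets were called higher and lower early, with the same 3 clock genes, and 0.206% and 0.448% late, where the 4 clock genes stayed higher and Nfil3 and Bhlhe40 were called lower. Over the varying probe sets alone, rank products called none of the clock genes in either comparison. Few others were called there: 10 higher and 23 lower of 3974 early, and 5 higher and 2 lower of 3100 late. The tool limma, which sets each change against the spread between rats, called 0% of the probe sets in LP against CN and 0% in LP-R against CN-R after Benjamini-Hochberg adjustment. At an unadjusted p under 0.05, limma passed 2342 of the 31042 probe sets early and 1566 late, and of the varying probe sets of the clock genes 2 of 10 early (Bhlhe41 and Nfil3) and 0 of 12 late. Among all varying probe sets that share was 14.5% early and 3.65% late.

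**Figure D1:**
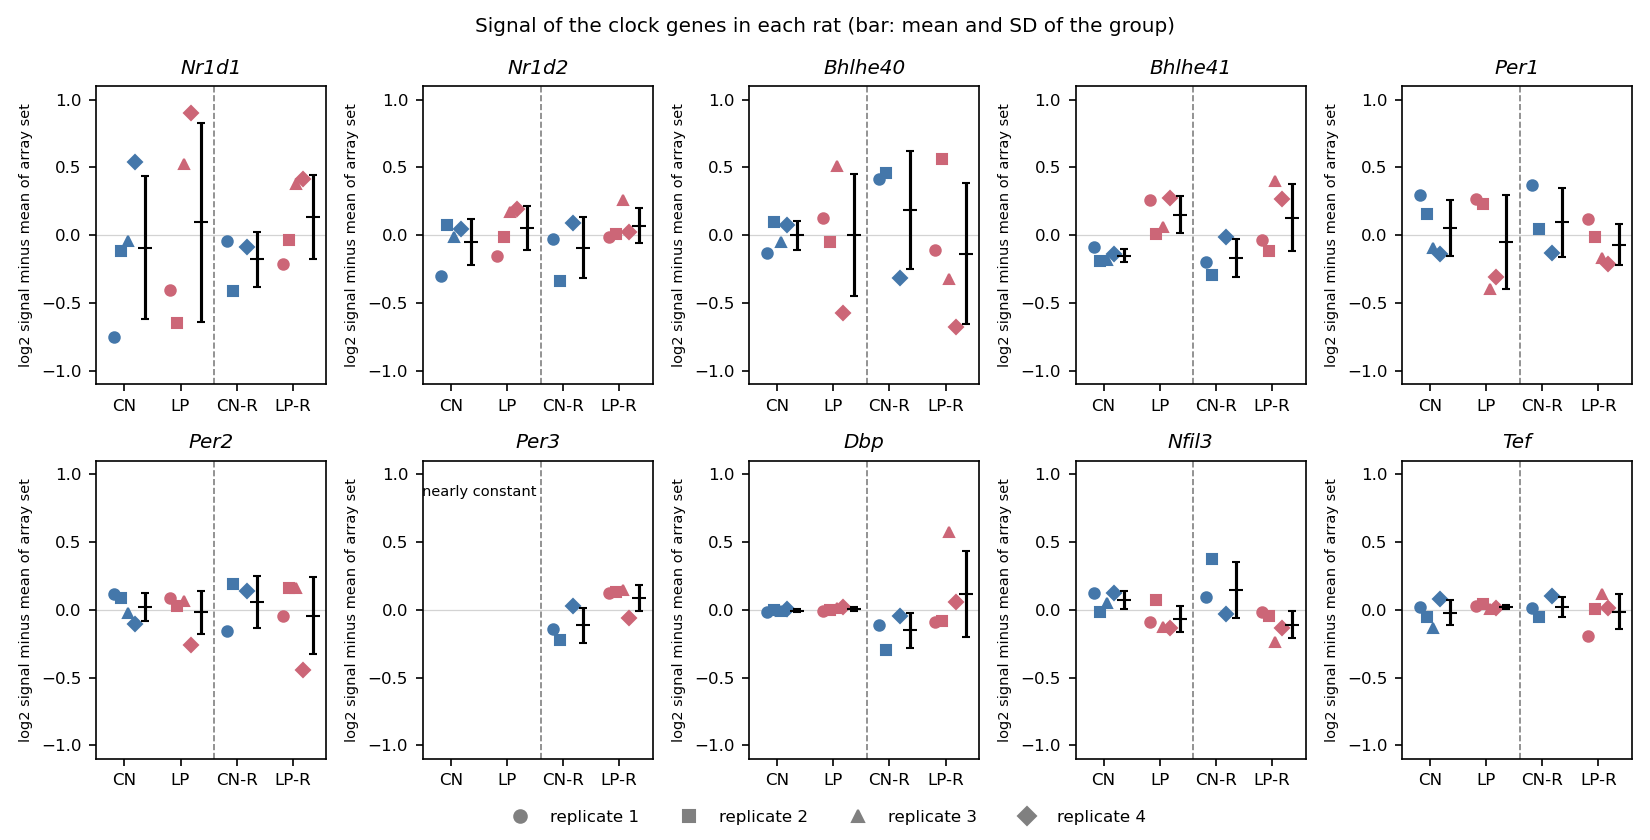
Log2 signal of each clock gene in every rat, as the difference from the mean of its array set, with CN and LP left and CN-R and LP-R right of the dashed line; symbols give the replicate number, and bars the mean and SD of each group. The 4 LP values of Bhlhe41 all lie above the 4 CN values, whereas Nr1d1 spans a 3.14-fold range over the early rats with both diets mixed.

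Bhlhe41 (1368511_at) encodes a basic helix-loop-helix repressor that competes with BMAL1 and CLOCK at E-boxes. Its log2 signal was 8.64, 8.53, 8.54 and 8.59 in CN replicates 1 to 4, and 8.98, 8.74, 8.79 and 9.0 in LP replicates 1 to 4. Every LP rat lay above every CN rat. The mean was 8.57 ± 0.05 (SD, n = 4) in CN and 8.88 ± 0.13 (SD, n = 4) in LP, a difference of 0.30 ± 0.07 (SE) on the log2 scale, or 1.23-fold. The exact permutation test gave a two-sided p = 0.0286, the smallest that 4 rats against 4 allow, and limma gave an adjusted p of 0.559 over all probe sets. Bhlhe41 was the only clock gene whose early groups did not overlap, against 7.9% of all varying probe sets. On day 84 the signal was 9.05, 8.95 and 9.23 in CN-R replicates 1, 2 and 4, and 9.21, 9.13, 9.65 and 9.51 in LP-R replicates 1 to 4. Only CN-R replicate 4 reached into the LP-R range, lying above LP-R replicates 1 and 2. The difference was again 0.30, with an SE of 0.15 (exact permutation p = 0.171, two-sided). No clock gene had late groups that did not overlap, against 3.84% of all varying probe sets. The late change of Bhlhe41 minus the early one was -0.00399 on the log2 scale (exact permutation p = 0.987, two-sided, with labels permuted within each set). Leaving out any 1 array kept the early change between 0.26 and 0.35 and Bhlhe41 called higher in 8 of 8 settings. The late change lay between 0.21 and 0.38, and Bhlhe41 was no longer called without LP-R replicate 3 or without LP-R replicate 4.

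Bhlhe40 (1369415_at), the sister gene of Bhlhe41, did not follow it. Its log2 signal was 7.94, 8.17, 8.02 and 8.14 in CN and 8.19, 8.02, 8.58 and 7.50 in LP, replicates 1 to 4 in each. The LP rats held both the highest and the lowest early value, and the CN rats lay close together between them. The early difference was 0.01 ± 0.23 (SE, exact permutation p = 0.943, two-sided). Late values were 9.14, 9.19 and 8.41 in CN-R replicates 1, 2 and 4 and 8.62, 9.29, 8.41 and 8.05 in LP-R replicates 1 to 4. CN-R replicates 1 and 2 and LP-R replicate 2 were high and the other rats low, so the groups overlapped across a 2.36-fold range. The late difference of -0.32 ± 0.36 (SE) gave an exact permutation p of 0.429 (two-sided), and Bhlhe40 was called lower only where the mean of each probe set was taken out, and without LP-R replicate 2.

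Nr1d1 (1370816_at) encodes REV-ERBα, the nuclear receptor that silences Bmal1. Its log2 signal was 6.54, 7.18, 7.25 and 7.84 in CN and 6.89, 6.65, 7.82 and 8.20 in LP, replicates 1 to 4 in each. The groups overlapped over nearly their whole range, with LP replicates 1 and 2 and CN replicate 1 low and LP replicates 3 and 4 and CN replicate 4 high. The mean was 7.20 ± 0.53 (SD, n = 4) in CN and 7.39 ± 0.74 (SD, n = 4) in LP, a difference of 0.19 ± 0.45 (SE, exact permutation p = 0.714, two-sided). The within-group SD of 0.641 was larger than that of 99.2% of the 2674 varying genes. Rank products called Nr1d1 higher in LP (pfp = 0.0298), but the change was -0.03 without CN replicate 1 and -0.08 without LP replicate 4, where it was called lower, and it was also not called higher without LP replicate 3. Late values were 7.67, 7.31 and 7.63 in CN-R replicates 1, 2 and 4 and 7.50, 7.68, 8.09 and 8.13 in LP-R replicates 1 to 4. The 2 highest rats were LP-R, and LP-R replicate 1 lay below 2 of the CN-R rats. The late difference was 0.31 ± 0.19 (SE, exact permutation p = 0.229, two-sided; pfp = 0.00708 for higher), and it was not called without LP-R replicate 3 or without LP-R replicate 4.

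Nr1d2, which encodes REV-ERBβ, had 3 probe sets. The brightest (1390430_at) read 9.22, 9.60, 9.51 and 9.57 in CN and 9.37, 9.52, 9.70 and 9.72 in LP, replicates 1 to 4 in each. Replicate 1 was the lowest rat in both groups and the groups overlapped (difference 0.10 ± 0.12 (SE), exact permutation p = 0.457, two-sided). Late values were 9.93, 9.62 and 10.06 in CN-R replicates 1, 2 and 4 and 9.95, 9.97, 10.22 and 9.99 in LP-R replicates 1 to 4. CN-R replicate 2 was the lowest and LP-R replicate 3 the highest rat, and the late difference was 0.16 ± 0.14 (SE, exact permutation p = 0.343, two-sided). The second probe set (1370541_at) changed by 0.06 ± 0.12 (SE) early and 0.07 ± 0.19 (SE) late, and the third (1370540_at), which varied late only, by -0.02 ± 0.12 (SE). None of the 3 was called. With CN-R replicate 4 left out, or counted as LP-R after its treatment field, Nr1d2 was called higher late.

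Per1 (1374855_at), a period gene of the repressor arm that also responds quickly to glucocorticoids and cAMP, read 8.10, 7.96, 7.71 and 7.66 in CN and 8.07, 8.04, 7.41 and 7.50 in LP, replicates 1 to 4 in each. In both groups replicates 1 and 2 were high and replicates 3 and 4 low. The early difference was -0.11 ± 0.20 (SE, exact permutation p = 0.6, two-sided). Late values were 7.86, 7.53 and 7.35 in CN-R replicates 1, 2 and 4 and 7.61, 7.47, 7.32 and 7.27 in LP-R replicates 1 to 4. The groups overlapped, with a late difference of -0.16 ± 0.17 (SE, exact permutation p = 0.343, two-sided). Per1 was called in neither comparison, but it was called lower early without LP replicate 1 and without LP replicate 2.

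Per2 (1368303_at), the other period gene with a usable early signal, read 8.40, 8.37, 8.26 and 8.18 in CN and 8.37, 8.31, 8.35 and 8.03 in LP, replicates 1 to 4 in each. LP replicate 4 was the lowest rat and the remaining LP rats lay inside the CN range. The early difference was -0.04 ± 0.10 (SE, exact permutation p = 0.714, two-sided). Late values were 7.73, 8.08 and 8.02 in CN-R replicates 1, 2 and 4 and 7.83, 8.05, 8.05 and 7.44 in LP-R replicates 1 to 4, and replicate 4 was again the lowest of the restricted rats. The late difference was -0.10 ± 0.18 (SE, exact permutation p = 0.629, two-sided). Per3 (1378745_at) was flat early and read 6.40, 6.32 and 6.57 in CN-R replicates 1, 2 and 4 and 6.67, 6.68, 6.69 and 6.49 in LP-R replicates 1 to 4. LP-R replicates 1 to 3 lay above all CN-R rats, and LP-R replicate 4 lay below CN-R replicate 4. The late difference was 0.20 ± 0.09 (SE, exact permutation p = 0.0857, two-sided; pfp = 0.0116), and Per3 was no longer called higher without LP-R replicate 1, 2 or 3, each left out alone.

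Nfil3 (1368488_at), also known as E4bp4, encodes the repressor of D-box genes. Its log2 signal was 9.32, 9.18, 9.25 and 9.33 in CN and 9.11, 9.27, 9.07 and 9.06 in LP, replicates 1 to 4 in each. The other 3 LP rats lay below all CN rats, while LP replicate 2 lay within the CN range. The mean fell from 9.27 ± 0.07 (SD, n = 4) to 9.13 ± 0.10 (SD, n = 4), a difference of -0.14 ± 0.06 (SE, exact permutation p = 0.0857, two-sided; pfp = 0.0406). The early call was lost in 7 of the 8 settings that leave out 1 array, and held only without LP replicate 2. Late values were 8.22, 8.51 and 8.10 in CN-R replicates 1, 2 and 4 and 8.12, 8.08, 7.89 and 7.99 in LP-R replicates 1 to 4. The 3 lowest rats were LP-R, and CN-R replicate 4 lay just below LP-R replicate 1. The late difference was -0.26 ± 0.13 (SE, exact permutation p = 0.0571, two-sided), and its pfp for lower was 0.0584, or 0.0311 with each probe set's mean taken out.

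Dbp (1387874_at), a D-box activator with one of the widest daily swings in most tissues, had a nearly flat signal in the early set. Its 8 early values lay between 7.52 and 7.55, a range of 0.03 on the log2 scale, and its within-group SD was larger than that of only 0.972% of the varying genes. The SD over all early arrays was 0.0122, just above the limit of 0.01 for a varying probe set. Such values say little of whether the Dbp transcript changed. Late values were 7.40, 7.21 and 7.46 in CN-R replicates 1, 2 and 4 and 7.42, 7.42, 8.09 and 7.57 in LP-R replicates 1 to 4. LP-R replicate 3 stood far above the rest, and the other rats spanned both groups. The late difference was 0.27 ± 0.18 (SE, exact permutation p = 0.229, two-sided; pfp = 0.0134), fell to 0.11 without LP-R replicate 3, and was not called without that rat, without LP-R replicate 4 or without CN-R replicate 2. The change of Dbp was 0.26 larger late than early, which the exact permutation test did not separate from the spread (p = 0.282, two-sided; adjusted p = 0.766 over 2073 probe sets). The early change in this comparison comes from the nearly flat values. Tef, the other D-box activator among the members, was read by different probe sets early and late. Tef (1390819_at) read 8.35, 8.28, 8.20 and 8.42 in CN and 8.36, 8.37, 8.34 and 8.34 in LP, replicates 1 to 4 in each. The LP rats lay inside the CN range (difference 0.04 ± 0.05 (SE), exact permutation p = 0.429, two-sided). Late, 1369919_at read 7.26, 7.19 and 7.34 in CN-R replicates 1, 2 and 4 and 7.05, 7.25, 7.36 and 7.25 in LP-R replicates 1 to 4, with a difference of -0.04 ± 0.08 (SE, exact permutation p = 0.771, two-sided).

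**Figure D2:**
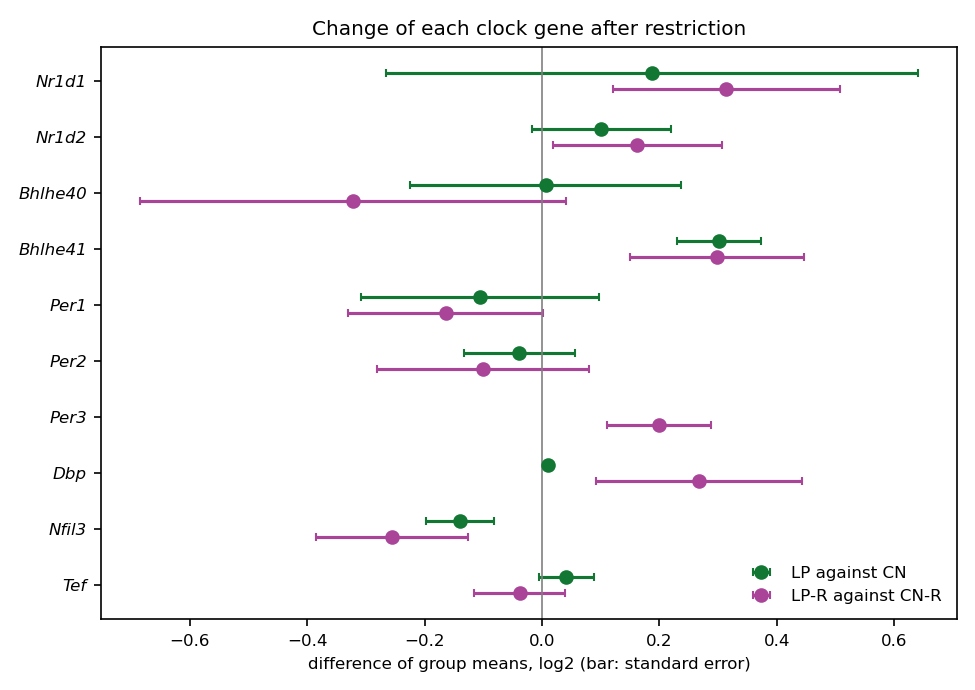
Difference of the restricted and the control group mean of each clock gene on the log2 scale, with its standard error, for LP against CN and LP-R against CN-R. Bhlhe41 sits at 0.30 in both comparisons, Nfil3 at -0.14 and -0.26, and the bars of Nr1d1 and Bhlhe40 are the widest of the early comparison.

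Of the 9 probe sets of clock genes that varied in both array sets, none had an early and a late change that differed by the exact permutation test (smallest p = 0.282, two-sided). The median change over the clock genes was 0.01 early (9 genes, 6 above 0) and 0.06 late (10 genes, 5 above 0). Over all varying genes it was 0.02 early, with 1602 of 2674 above 0, and -0.02 late, with 670 of 2082 above 0.

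Several values differed by the replicate number in the labels. What that number stands for is not given in the sources used here. In the early set, the arrays numbered 1 or 2 did not overlap those numbered 3 or 4 for 2 of the 9 clock genes, Nr1d1 and Per1, against 9.64% of all varying probe sets. Nr1d1 lay between 6.54 and 7.18 on the former and between 7.25 and 8.20 on the latter, and Per1 between 7.96 and 8.10 and between 7.41 and 7.71. In the late set the same held for 5 of the 10 genes (Nr1d2, Bhlhe40, Bhlhe41, Per1 and Dbp), against 17.8% of all varying probe sets. Nr1d2, Bhlhe41 and Dbp were higher, and Bhlhe40 and Per1 lower, on the late arrays numbered 3 or 4. Bmal1, which is not a member, split late in the same way and was lower on the arrays numbered 3 or 4. Only 1 CN-R rat but 2 LP-R rats carry the number 3 or 4, so in the late set number and group are partly confounded. Within the arrays numbered 1 or 2 and those numbered 3 or 4, the change of Bhlhe41 was 0.28 and 0.33 early and 0.17 and 0.35 late. For Nr1d1 the 4 values were -0.09 and 0.46 early and 0.10 and 0.48 late, and for Dbp 0.12 and 0.37 late. Nfil3 changed by -0.06 and -0.22 early and by -0.26 and -0.16 late. A limma fit with a term for these numbers gave Bhlhe41 an unadjusted p of 0.00921 early and 0.0176 late, and adjusted p of 0.559 and 0.877.

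**Figure D3:**
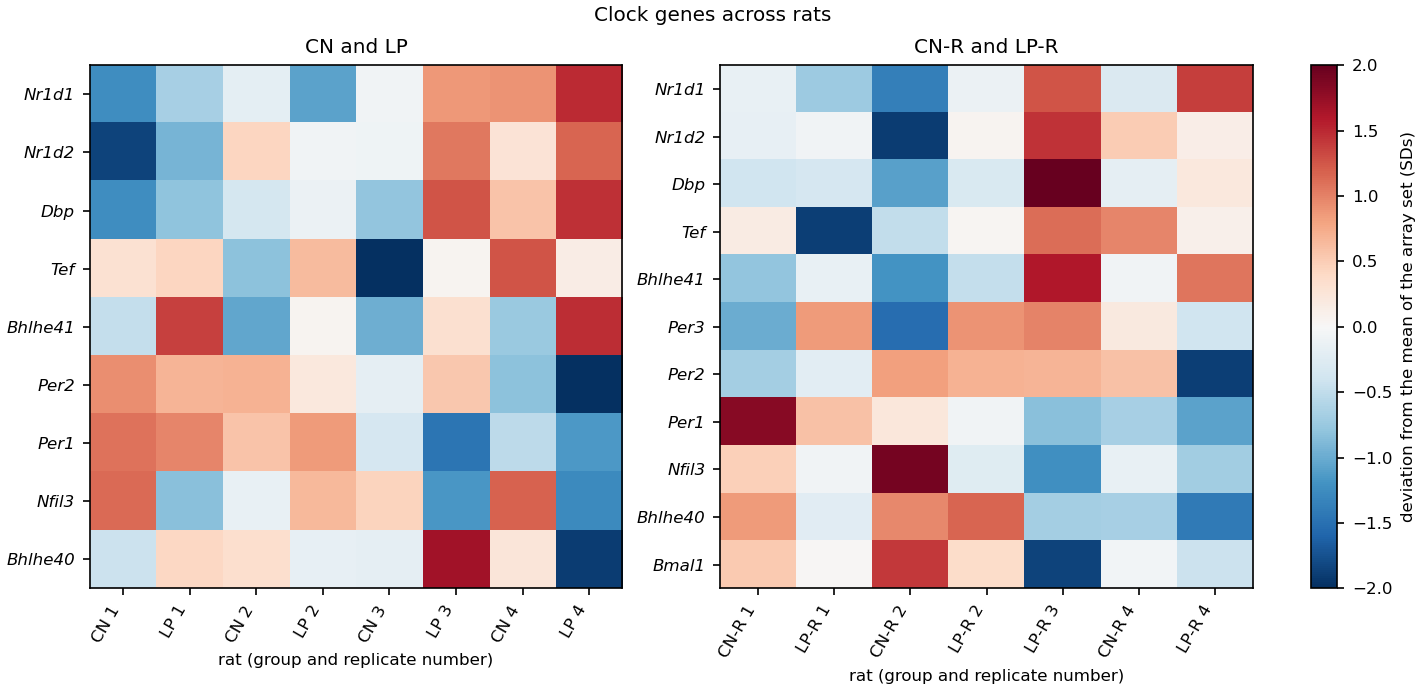
Each row is a clock gene (with Bmal1 late) and each column a rat, sorted by replicate number; colour gives the deviation from the mean of the array set in SDs, red above and blue below. Early, Nr1d1 is lower and Per1 higher in every rat numbered 1 or 2 than in those numbered 3 or 4; late, LP-R replicate 3 is highest for Nr1d2, Dbp and Bhlhe41 and lowest for Nfil3 and Bmal1.

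Whether the 2 arms moved together was tested over rats with Pearson's r and Spearman's rho, exact permutation tests over pairings (two-sided), and Benjamini-Hochberg adjustment over all activator and repressor pairs of a set. Activators were Dbp and Tef and, of Bmal1, Clock, Npas2 and Hlf from the other clock genes, those whose probe sets varied, which were Hlf and Clock early and Hlf and Bmal1 late; the repressors were the other 8 members, and Rora and Cry1 entered no pair. Of 28 early pairs, 3 had an unadjusted exact p up to 0.05 and none passed adjustment (smallest adjusted p = 0.0903); r was above 0 in 15 pairs and below 0 in 13. The 3 pairs were Dbp with Nr1d1 (r = 0.88, rho = 0.81, exact p = 0.00652), with Nr1d2 (r = 0.88, rho = 0.93, exact p = 0.00335) and with Per1 (r = -0.85, rho = -0.88, exact p = 0.00967). Within diet groups r was 0.92, 0.87 and -0.88, and without the 2 rats farthest from the median of Dbp it was 0.71, 0.76 and -0.57. The early range of Dbp was 0.03 on the log2 scale, and after median centring of the arrays r was 0.68, 0.40 and -0.62. After quantile normalization r was 0.90, 0.77 and -0.89, and again no early pair passed adjustment (smallest adjusted p = 0.0528 by exact permutation). Tef, Hlf and Clock had no early repressor partner with an unadjusted p up to 0.05.

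In the late set 2 of 32 activator and repressor pairs passed adjustment by r and 5 by rho. Bhlhe41 rose with Dbp (r = 0.90, rho = 0.96, exact p = 0.000397, adjusted p = 0.00635) and ran opposite to Bmal1 (r = -0.95, rho = -1, exact p = 0.000198, adjusted p = 0.00635). Bmal1 (1370510_a_at) read 7.39, 7.53 and 7.31 in CN-R replicates 1, 2 and 4 and 7.32, 7.37, 7.04 and 7.25 in LP-R replicates 1 to 4, the reverse order of Bhlhe41 in all 7 rats. For Bhlhe41, Dbp and Bmal1 alike, the late arrays numbered 1 or 2 did not overlap those numbered 3 or 4. The permutations over pairings took no account of these numbers. By rho alone, Dbp also rose with Nr1d2 (rho = 0.96, adjusted p = 0.0222 by exact permutation) and fell with Nfil3 (rho = -0.96, adjusted p = 0.0222), and Bmal1 fell with Nr1d2 (rho = -0.93, adjusted p = 0.0432). After median centring of the arrays r was 0.91 for Dbp with Bhlhe41 (adjusted p = 0.00635 by exact permutation) and -0.77 for Bmal1 with Bhlhe41 (adjusted p = 0.158), so the latter was no longer called. After quantile normalization r was 0.90 and -0.93, and both pairs passed (adjusted p = 0.00635 for each by exact permutation). Without the 2 rats farthest from the median of the activator, r was 0.97 for Dbp with Bhlhe41 and -0.96 for Bmal1 with Bhlhe41. Within diet groups it was 0.87 and -0.92, with exact permutation p of 0.0139 and 0.00694 before adjustment and 0.0889 and 0.0741 after it. None of the 32 pairs passed within groups. The smallest p that these permutations allow is 0.00694, which a single pair cannot carry through adjustment over 32 pairs. The within-group test could therefore hardly decide. Dbp thus had r above 0 with Bhlhe41 and Nr1d2 and below 0 with Nfil3, and Bmal1 had the opposite signs.

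**Figure D4:**
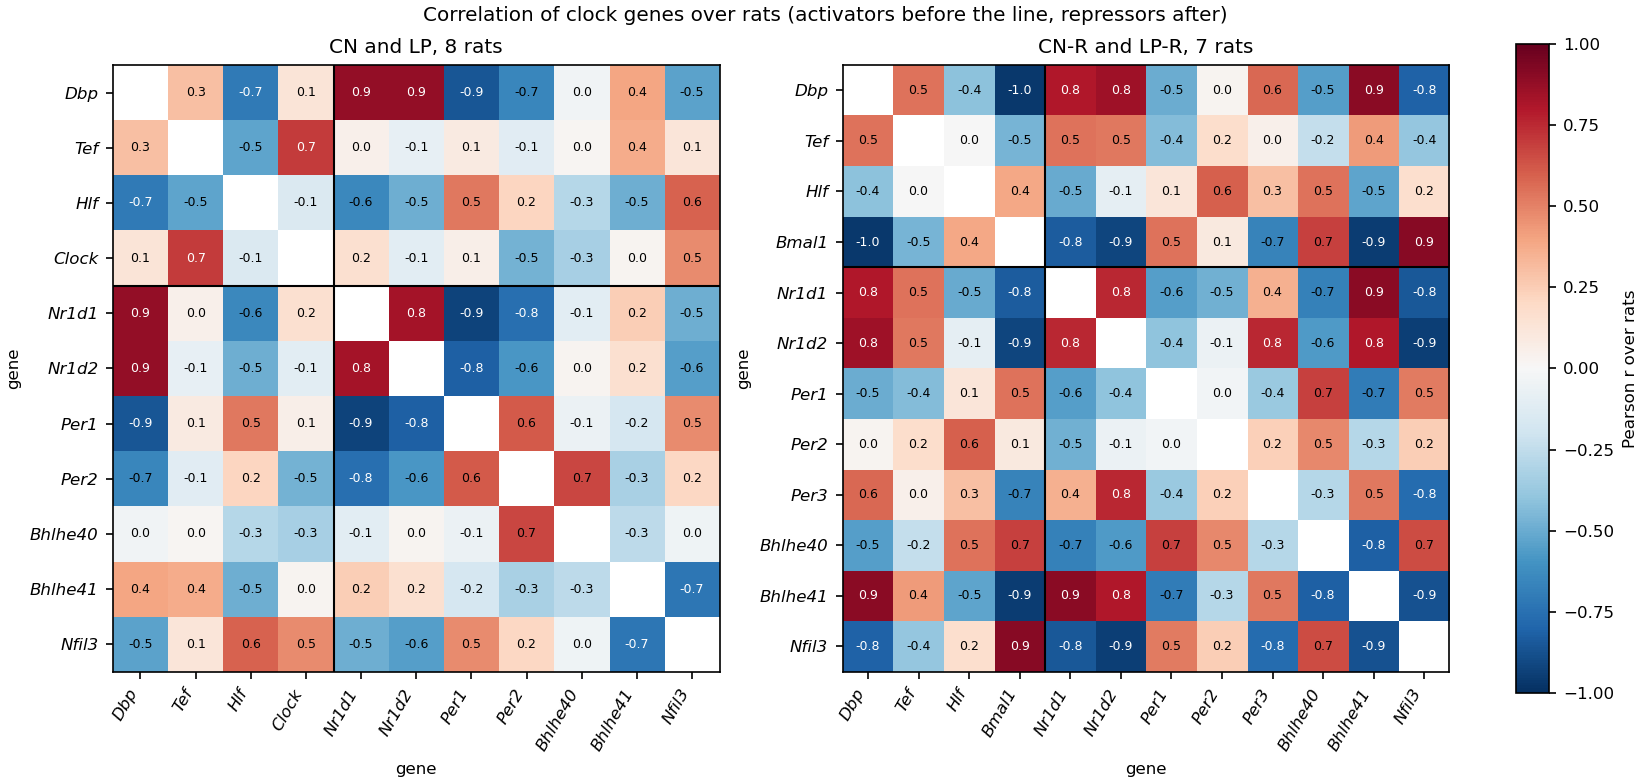
Pearson r over rats for each pair of clock genes, CN and LP left (8 rats) and CN-R and LP-R right (7 rats), with activators before the black lines and repressors after them. Dbp is red with Nr1d1 and Nr1d2 and blue with Per1 and Nfil3 in both sets, and late the Bmal1 row is close to the opposite of the Dbp row.

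Pairs within an arm were examined after these values had been seen. Among 21 early pairs of repressors, Nr1d1 fell as Per1 rose (r = -0.92, rho = -0.90, exact p = 0.00161, adjusted p = 0.0339), and the r was -0.89 without the 2 rats farthest from the median of Nr1d1 and -0.92 within diet groups, where its adjusted p was 0.246. Both Nr1d1 and Per1 also split early between arrays numbered 1 or 2 and those numbered 3 or 4, which the permutations took no account of. No other of the early repressor pairs passed, and neither did any of the 28 late pairs of repressors (smallest adjusted p = 0.0931 by exact permutation). Late, r was -0.55 for Nr1d1 with Per1 and -0.94 for Nr1d2 with Nfil3. Bhlhe40 and Bhlhe41, sister genes with a like protein role, had r = -0.82 late (adjusted exact p = 0.101) and -0.26 early. Among 6 late pairs of activators, Dbp fell as Bmal1 rose (r = -0.97, rho = -0.96, exact p = 0.000397, adjusted p = 0.00238), with r = -0.89 without the 2 rats farthest from the median of Dbp and -0.96 within diet groups. Dbp and Bmal1 likewise both split late by replicate number. None of the 6 early pairs of activators passed (smallest adjusted p = 0.199 by exact permutation).

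**Figure D5:**
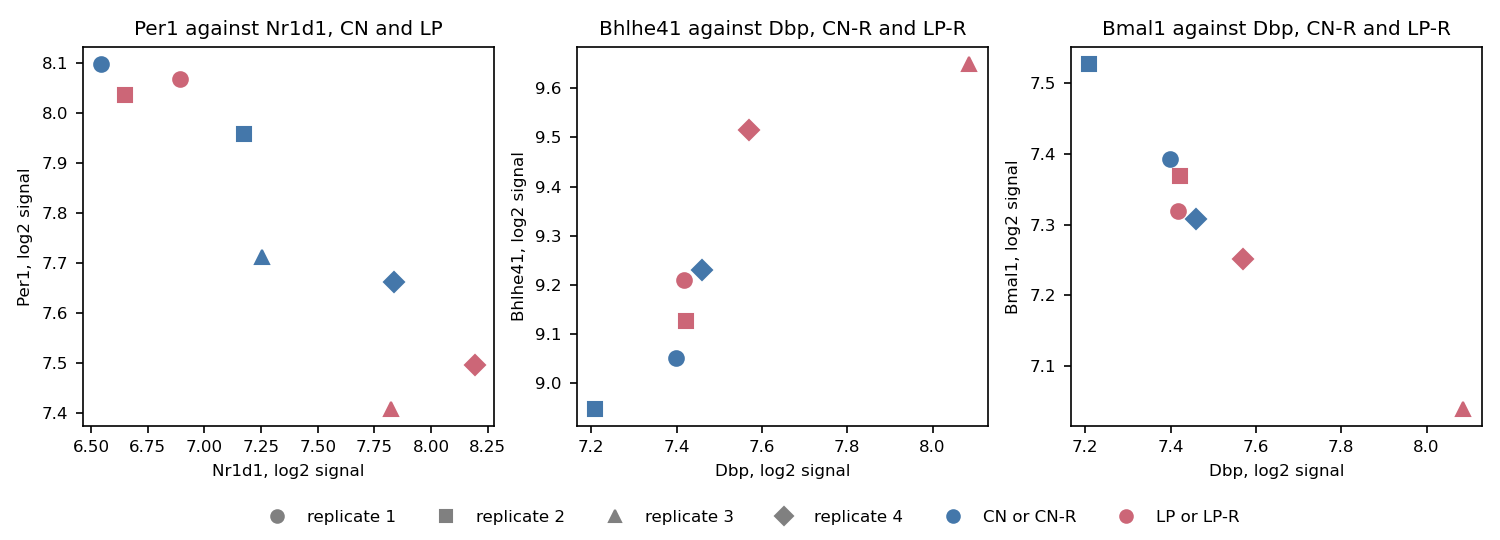
Log2 signals of 3 pairs of clock genes, 1 point per rat; colour gives the diet group and the symbol the replicate number. Per1 falls from 8.10 to 7.41 as Nr1d1 rises over the early rats, and over the late rats Bhlhe41 rises and Bmal1 falls with Dbp, with LP-R replicate 3 at the end of both rows.

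The spread between rats of the same diet was large for several of these genes. Early, the within-group SD of Nr1d1, Bhlhe40 and Per1 exceeded that of 99.2%, 95.4% and 93.9% of the varying genes, and late that of Bhlhe40, Nr1d1, Dbp and Per2 exceeded 98.4%, 94%, 93.4% and 92.9%. At the other end, Dbp, Tef and Nfil3 exceeded 0.972%, 33.8% and 45.5% early, and Per3 and Tef 59.5% and 59.7% late. Over the rats the lowest and highest Nr1d1 signal differed 3.14-fold early and 1.77-fold late.

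The genes most like Nr1d1 and Dbp were ranked by the smaller of their early and late r, over 1665 probe sets that varied in both sets. This is a description over 8 early and 7 late arrays, each set treated as summarized together. Dbp ranked first for Nr1d1 (smaller r = 0.80), followed by 4930522L14Rikl and Pdlim3 (both 0.78), Nr1d2 (1370541_at, 0.78) and Got1 (0.78). The early r of Dbp with Nr1d1, 0.88 over a Dbp range of 0.03 on the log2 scale, was 0.68 after median centring; the ranks were not recomputed on centred values. For Dbp the order was Nr1d2 (1370541_at, 0.86), Nr1d1 (0.80), Aopep (0.76), Nmrk2 (0.75) and Ppif (0.72). The genes that ran most opposite to Nr1d1, chosen after their values were seen, were Rcan2 (r = -0.90 early and -0.87 late), Enc1 (-0.93 and -0.85), Ddit4 (-0.86 and -0.85), Gadd45g (-0.85 and -0.87) and Cebpd (-0.89 and -0.83).

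Of 24 other clock genes looked for, 19 had a probe set, and 8 varied early and 9 late. None of them was called higher in either comparison, and 3 were called lower early: Rora, an activator at ROR elements, Usp2, a deubiquitinase, and Gsk3b, a kinase that phosphorylates clock proteins. Rora read 8.65, 8.78, 9.01 and 8.73 in CN and 8.18, 8.66, 8.13 and 8.56 in LP, replicates 1 to 4 in each, with a single overlap between CN replicate 1 and LP replicate 2. Its difference was -0.41 ± 0.15 (SE, exact permutation p = 0.0571, two-sided), and the differences of Usp2 and Gsk3b were -0.21 ± 0.10 (SE) and -0.22 ± 0.08 (SE). Late, 1412 of all 2082 varying genes changed below 0, with a median of -0.02. The 9 varying genes among the other clock genes all changed below 0, with a median of -0.09. None was called, or 1 lower with each probe set's mean taken out. Csnk1d, a kinase of the period proteins, had the lowest unadjusted limma p of these, 0.0478 for a difference of -0.09 ± 0.03 (SE). Bmal1 and Cry1 changed by -0.16 ± 0.10 (SE) and -0.13 ± 0.08 (SE).

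Over all probe sets, most of them flat, 1.65% were called higher and 1.62% lower early, and 0.345% and 0.168% late. The lists of cycling, glucocorticoid-induced and cAMP-responsive genes held mostly varying genes, so their counts are not like for like with these shares. Genes known to cycle in muscle, of which 13 of 15 varied in each comparison, gave 1 higher and 5 lower in LP against CN. In LP-R against CN-R they gave 1 higher and 2 lower of 15, or 3 lower with each probe set's mean taken out. The lower genes early included Fbxo32, the ubiquitin ligase atrogin-1, whose groups did not overlap (difference -0.72 ± 0.25 (SE), exact permutation p = 0.0286, two-sided), and Pdk4 (-0.23 ± 0.10 (SE)). Genes induced by glucocorticoids gave 0 higher and 6 lower of 11 early, among them Cebpb (-0.21 ± 0.08 (SE)) and Mt2A (-0.31 ± 0.10 (SE)). Others called lower had wider errors: Ddit4 (-0.72 ± 0.70 (SE)), Cebpd (-0.49 ± 0.36 (SE)) and Errfi1 (-0.34 ± 0.32 (SE)). Of the 10 varying genes, 9 changed below 0 early, and Fkbp5 changed above 0 (0.09 ± 0.11 (SE)). Late none was called, or 4 lower with each probe set's mean taken out. Their r with Nr1d1 was below 0 for 9 of 10 varying genes early (median -0.58) and 10 of 10 late (median -0.61), against medians of 0.02 and -0.22 over all varying genes. The early split of Nr1d1 by replicate number was not taken into account. For the cycling genes, r with Nr1d1 was below 0 for 7 of 13 in each comparison (medians -0.15 early and -0.23 late). For the other clock genes it was below 0 for 5 of 8 early (median -0.14) and 6 of 9 late (median -0.49). Immediate early and cAMP-responsive genes gave 10 of 12 below 0 early (median -0.72) and 11 of 13 late (median -0.39). They had 3 called higher and 4 lower of 13 early (Fosb in both directions) and 1 higher and 5 lower of 13 late. With each probe set's mean taken out, the counts were 4 higher and 4 lower early, and 0 higher and 6 lower late. These are lists of genes that share known inducers; what moved them was not tested.

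Marker lists for other cells were read beside these results, and in this and the other lists a gene counted as called where any of its probe sets was. The brightest probe sets of Myh7 late and Col1a1 early, named next, had a pfp for lower of 0.354 and 0.16, so their calls came from another probe set. All 8 skeletal muscle fiber genes were measured, and 4 varied early and 5 late. The mean log2 signal of those that varied was 11.91 to 12.02 over the early rats. Over the late rats it was 11.95 to 12.08, for a different set of genes. Of the varying ones, 3 changed above 0 and 1 below early, and 2 above and 3 below late. Only Myh1, a fast myosin heavy chain, was called, higher late. Over all varying genes, 1072 of 2674 changed below 0 early and 1412 of 2082 late. Of 7 slow fiber genes, all 7 changed below 0 in both comparisons, with none called early and Myh7 called lower late. The mean signal of the slow fiber genes was 11.7 to 11.9 in CN-R and 11.5 to 11.9 in LP-R. With each probe set's mean taken out, 4 of the 7 were called lower late. Their r with Nr1d1 was below 0 for 2 of 7 early (median 0.09) and for 7 of 7 late (median -0.72). Of 7 measured adipocyte markers, Adipoq and Scd were called higher early (mean signal 7.78 to 8.28 in CN and 7.76 to 8.88 in LP) and Cfd lower late. Single markers were also called for endothelium (Kdr, higher early), leukocytes (S100a9 higher early, Lyz2 higher late) and fibroblasts (Col1a1, lower early). Early, 3 of the 4 varying fibroblast markers changed above 0, with Col1a1 the 1 below. Of the varying leukocyte markers, 2 changed above 0 and 1 below early, and 1 each way late. The 2 varying endothelial markers changed above 0 early. The 1 blood cell marker that varied (Hbb) was called in neither comparison, but was called lower late with each probe set's mean taken out. It lay between 11.4 and 12.1 in CN-R and between 11.1 and 11.6 in LP-R, and had r = -0.54 with Nr1d1 early and -0.94 late. The part of these shifts in the clock gene values was not tested, and in a bulk sample fewer cells of a type and less RNA per cell cannot be told apart.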

How the data were processed

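Gastrocnemius RNA of 15 rats was hybridised to 1-colour Rat Genome 230 2.0 arrays, 1 per rat. The deposited values are log2 signals that the authors summarized with FARMS. The early and the late arrays were treated as summarized apart, because 94.7% of the probe sets nearly constant in both sets sat at different constants. Groups were taken from the sample titles, and CN-R replicate 3 was not analysed here. After 57 control probe sets were left out, 31042 remained, of which 20826 had 1 gene symbol, 436 several and 9780 none. Probe sets with an SD over 0.01 within an array set were treated as varying. Rank products were computed over all pairs of arrays with 100 permutations (seed 1) and a pfp up to 0.05, and limma 3.58.1 (R 4.3.3) with Benjamini-Hochberg adjustment was run beside them. Single genes were compared by exact permutation tests, two-sided and unadjusted. Python 3.11.15, numpy 2.4.6, scipy 1.17.1, pandas 2.3.3 and matplotlib 3.10.9 were used, and the scripts were tested on simulated data. The genes, lists and pairs were chosen with earlier results of these data known. All members were named, other clock genes by their counts and where called or under an unadjusted limma p of 0.05, and for Nr1d1 and Dbp the 5 most alike genes. Examples from the further lists were picked after their values were seen. Alternatives covered the null of rank products, disjoint or same-numbered pairs, filters on dim and flat probe sets, a stricter pfp, limma, quantile normalization, median centring, each array left out in turn, and the other group label of CN-R replicate 4. The number of arrays limits the precision.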

Additional observations from a re-analysis of the deposited data

Results flagged for a closer look

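Of 32 groups of 4 rats that were examined among the clock genes, 2 held a rat far from the other 3 by Dixon's test, which by chance flags about 1 in 20 groups. LP-R replicate 3 had the highest Nr1d2 signal (1390430_at), 10.22 on the log2 scale, against 9.99 in the nearest LP-R rat. LP-R replicate 4 had the lowest Per3 signal (1378745_at), 6.49, against 6.67 in the nearest.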

How the results depend on the processing

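Of the clock genes, 2 were called higher and 1 lower in LP against CN, and 4 higher and 0 lower in LP-R against CN-R. Over the varying probe sets alone, by limma, by limma with a replicate block and by limma with a term for replicates 1 and 2 against 3 and 4, all of these counts were 0. With rank products over same-numbered pairs (a replicate block), they were 2 and 0 early and 1 and 0 late. Same-numbered rats had deviations with correlations of 0.551, -0.0309, 0.165 and 0.401 early and 0.0441, 0.186 and 0.215 late. Rats of unlike number had correlations from -0.535 to 0.333 early and from -0.317 to 0.283 late. Early, 0.551 and 0.401 thus lay above every unlike pair, and late no same-numbered pair did. The sources used here do not say what the numbers stand for, so the main tests did not pair the samples by them. Whether the numbers mark pairs was not tested. A filter on dim probe sets gave 1 and 0 early, and a pfp up to 0.01 gave 1 and 0 early and 2 higher late. Disjoint pairs of arrays gave 0 higher late, and permuting deviations gave 2 lower late. Over all probe sets the late calls were 107 higher and 52 lower, 64 and 139 with deviations permuted, 11 and 30 with disjoint pairs, and 331 and 11 with CN-R replicate 4 counted as LP-R. Leaving out 1 array gave 1 to 2 higher and 0 to 2 lower early, and 0 to 5 higher and 0 to 2 lower late, and moved the early change of Nr1d1 between -0.0805 (without LP replicate 4) and 0.43 (without LP replicate 2), with -0.03 without CN replicate 1. The cause was not tested.

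Of the correlated pairs, the 1 early pair of repressors became 0 by rho, within diet groups and without the 2 farthest arrays, and 3 after median centring. The 2 late activator and repressor pairs became 5 by rho, 0 within groups, 0 without the 2 farthest arrays and 1 after median centring. Quantile normalization left the counts of pairs by r unchanged. Median centring gave 1 late pair of repressors in place of 0, and the 1 late pair of activators became 0 within groups and without the 2 farthest arrays; those settings leave fewer arrays or fewer permutations.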
